A study of Mus musculus with 10 samples.

Results

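A set of 9 genes of the complement system were followed in mouse macrophages labelled WT or MKO for the junctional adhesion molecule-like gene Jaml. They were the rows of a gene count table named C1qa, C1qb, C1qc, C3, Cfb, Cfp, C3ar1, C5ar1 and Vsig4, 9 of 56980 rows, each on a single row. The other complement genes of the table, 51 by list, are given beside them. The series held 10 RNA-seq libraries of macrophages, 5 titled JAMLWT (WT below) and 5 titled JAMLMKO (KO below), the latter with the genotype entry JAML Knockdown. Every library came from cells given LPS (100 ng/ml, 8 h) followed by ATP (5 mM, 30 min), so no library shows complement genes without stimulation. The labels name neither the tissue the macrophages came from nor a Cre driver, and do not say whether libraries came from separate mice or cultures. P-values are therefore set against library-to-library spread, part or all of it possibly technical. The count columns of the second group are headed SI, a term the labels do not use. They were assigned to KO by elimination. All directions given here depend on this, and the numbers of those columns only name libraries.

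Complement is a cascade of plasma and cell-derived proteins that tags particles and cells for uptake, recruits leukocytes and can lyse membranes. C1q, assembled from an A, a B and a C chain, recognises bound antibody and cell debris and starts the classical pathway through the proteases C1r and C1s. C3 is the protein on which all pathways converge; factor B (Cfb) supplies the protease of the alternative pathway convertase, and properdin (Cfp) stabilises that convertase. The fragments C3a and C5a act on the G-protein-coupled receptors C3aR (C3ar1) and C5aR1 (C5ar1), and Vsig4, also called CRIg, binds C3 fragments on resident tissue macrophages. Macrophages are a main source of C1q and also make C3, factor B and properdin themselves.

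Libraries held 19319512 to 22766319 counts. Of the 10 macrophage markers checked, 9 were detected well enough to be tested; Lyz2 and Cd68 were the most abundant, and Cd163, a marker of only some macrophages, was below the count filter in both groups. Fibroblast and mesothelial markers were present in every library, with a summed level of 576 to 637 CPM in WT and 598 to 768 CPM in KO over 10 genes (exact permutation test, two-sided, p = 0.0238, Benjamini-Hochberg adjusted 0.0714 over 9 library measures). Of the 9 tested, 3 rose (Col1a1, Col1a2 and Dcn, by up to 0.37 on the log2 scale) and 2 fell (Pdgfra, at -1.01, and Upk3b, at -2.69), and Col1a1 and Col1a2 made up most of the sum. The sum hides uneven mesothelial markers within KO. Msln was at 8.99 and 11.4 CPM in KO 1 and KO 3 and at 0.302 to 1.08 CPM in KO 2, KO 4 and KO 5. Krt19 was at 2.30 and 3.18 CPM against 0.196 to 0.259 CPM in the same libraries. Wt1 did not split so, at 1.34 to 2.30 CPM in KO, and Lum had at most 5 counts in any library. CPM here is a count scaled to its library total after TMM normalisation, which corrects for differences in RNA composition between libraries. The TMM factors did not overlap between groups, at 0.948 to 0.969 in WT and 1.02 to 1.07 in KO (exact permutation p = 0.00794, adjusted 0.0357). Hepatocyte markers (8 genes, led by Alb and Apoa1) stood apart in KO 1, where they summed to 136 CPM, and in KO 2, where the sum was 158 CPM. The remaining 3 KO libraries had 4.71 to 12.4 CPM, and WT had 3.89 to 22.96 CPM. Mast cell markers (6 genes, led by Tpsb2 and Cma1) were lower in KO, with sums of 7.48 to 13.5 CPM in WT and 4.27 to 5.44 CPM in KO (exact permutation p = 0.00794, the smallest that 5 against 5 libraries allow, adjusted 0.0357). Lymphocyte markers stayed at 1.18 CPM or less over 10 genes, with Cd3e and Ncr1 at 0 counts throughout and Cd79b and Klrb1c the most abundant. Dendritic cell markers (7 genes, Zbtb46 and Ccr7 most abundant, Xcr1, Cd209a and Siglech at 0) stayed at 3.33 CPM or less. Neutrophil markers summed to 122 to 130.1 CPM in WT and 116 to 133 CPM in KO over 8 genes. Nearly all of it was Mmp8 and Csf3r. Ly6g and Cxcr2 had at most 3 counts in any library, and Retnlg, Elane and Ngp at most 7. Camp was the 1 called, higher in KO by 0.53 on the log2 scale. In bulk RNA, fewer cells of a type and less RNA per cell cannot be told apart.

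The members differed widely in abundance, with Cfb and C3 far above the rest. On the scale of CPM divided by gene length in kilobases (the length being the one implied by the authors' deposited FPKM), Cfb stood at 1038 ± 71.9 in WT and C3 at 249 ± 14.1 (mean ± SD, n = 5, as for all values with ± unless an SE is named). C1qb followed at 164 ± 6.89, C3ar1 at 127 ± 4.34 and C1qa at 62.6 ± 3.16. C1qc at 51.7 ± 2.01 and Cfp at 49.8 ± 2.42 lay within each other's spread, and C5ar1 at 20.03 ± 9.28 and Vsig4 at 0.221 ± 0.0901 closed the order. In KO the order began the same way, with Cfb at 1041 ± 51.4, C3 at 296 ± 17.6 and C1qb at 97.2 ± 5.00. C3ar1 at 49.6 ± 3.36, Cfp at 47.7 ± 0.749 and C1qa at 47.2 ± 2.33 then had overlapping spreads (mean ± SD), above C1qc at 33.8 ± 2.24, C5ar1 at 12.8 ± 6.09 and Vsig4 at 0.0878 ± 0.0417. The 9 members together took 0.678% to 0.753% of all counts in WT and 0.735% to 0.782% in KO, and Cfb supplied 64.6% to 69.3% of those counts, with no correction for length.

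Of the 9 members, 8 passed the filter on low counts and were tested with edgeR's quasi-likelihood test fitted to all genes. At an adjusted p under 0.05, C1qa, C1qb, C1qc and C3ar1 were lower in KO and C3 was higher. Cfb, Cfp and C5ar1 did not pass, and Vsig4 had too few counts to be tested. Of all 14436 genes tested, 15.0% were called lower and 14.1% higher, against 4 and 1 of the 8 members. The median log2 fold change was -0.51 over the 8 members tested and 0.01 over all genes. The members were chosen with earlier results of these data known, so these counts describe them and are not evidence about complement genes in general.

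**Figure D1:**
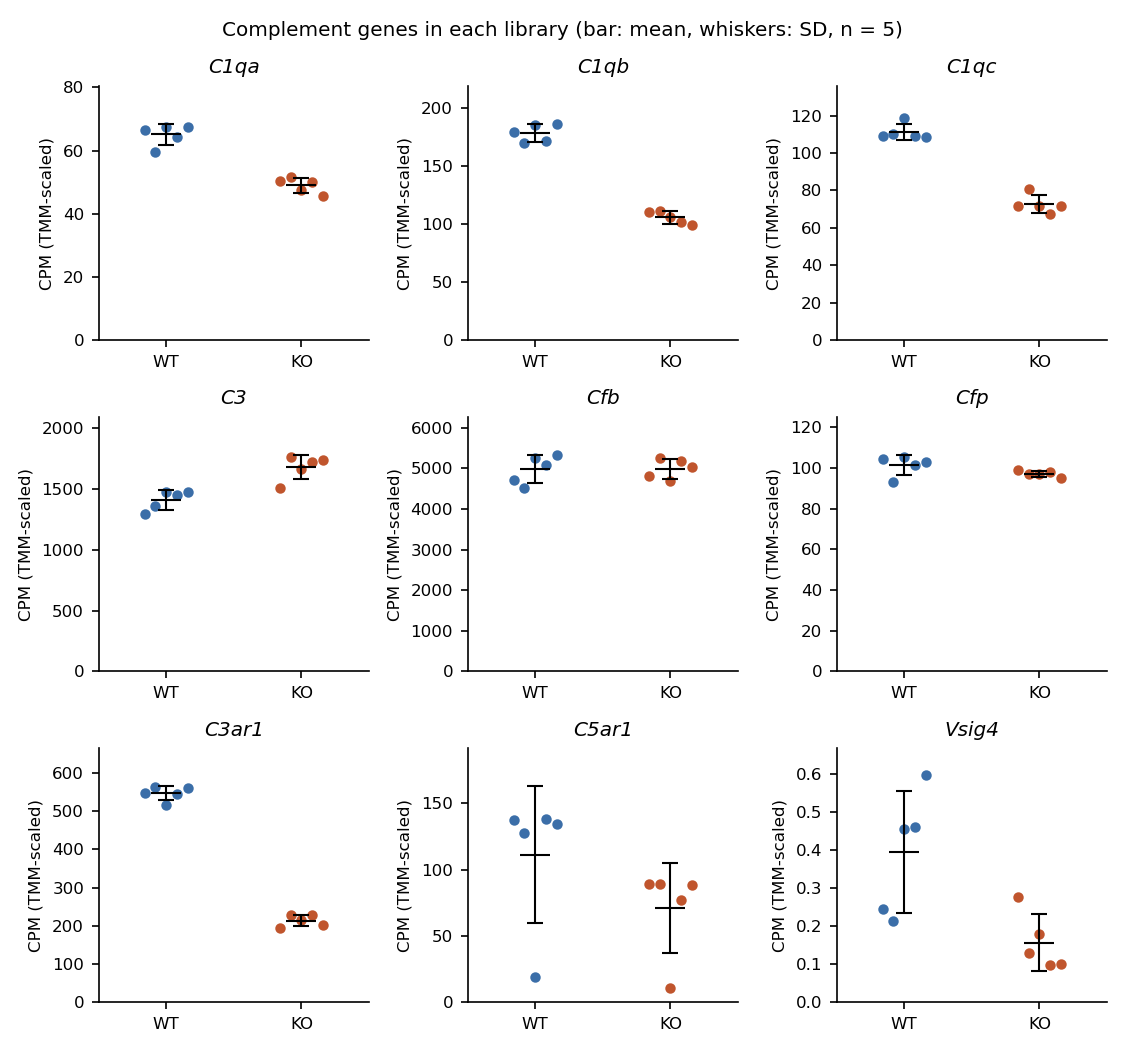
Level of each of the 9 complement genes in the 10 libraries, in CPM after TMM scaling (y axis, starting at 0), by group (x axis); points are libraries, the bar is the mean and the whiskers the SD of 5. C1qa, C1qb, C1qc and C3ar1 do not overlap between groups and are lower in KO, C3 is higher, and C5ar1 has 1 low library in each group.

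RefSeq promoter windows (GRCm38.p6, 250 bases before to 50 after the start of the gene) were found for 7 of the 9 members. They were searched on both strands for 5 letter patterns: a 10-letter core of the interferon-stimulated response element, TTCNNNGAA (a gamma-activated site), a 10-letter form of the NF-kB site (its letters are the capitals in the C3ar1 window), GAGGAA (a PU.1 core) and TTGCNNAA (a form of C/EBP site). GAGGAA was in 4 of the 7 windows (C1qb, C1qc, Cfp and Vsig4) and in 28.3% of all 32851 windows. The NF-kB form was in that of C3ar1 and in 1.63% of all windows, and TTGCNNAA in that of C3 and in 10.8% of all. The interferon response core and TTCNNNGAA, in 3.44% and 8.30% of all windows, were in none of the 7. Patterns may overlap one another, and a match describes letters, not binding. The 250 bases before the start are printed for C1qb, C1qc, C3ar1 and C3, the 4 members that were called and held a pattern, to show where it lies, with the pattern in capitals, 5′ to 3′ on the gene's strand. They lie on the minus strand at chr4:136886201-136886450 (C1qb), chr4:136892915-136893164 (C1qc), chr6:122856158-122856407 (C3ar1) and chr17:57228137-57228386 (C3).
C1qb: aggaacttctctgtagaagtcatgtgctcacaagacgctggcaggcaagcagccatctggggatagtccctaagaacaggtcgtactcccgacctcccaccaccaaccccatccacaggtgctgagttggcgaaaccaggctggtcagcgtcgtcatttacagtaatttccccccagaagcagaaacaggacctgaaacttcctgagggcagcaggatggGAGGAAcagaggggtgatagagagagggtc
C1qc: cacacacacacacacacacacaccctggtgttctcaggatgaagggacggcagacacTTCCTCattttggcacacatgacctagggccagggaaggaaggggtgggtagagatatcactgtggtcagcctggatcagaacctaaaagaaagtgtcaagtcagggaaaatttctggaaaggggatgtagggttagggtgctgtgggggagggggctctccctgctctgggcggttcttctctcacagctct
C3ar1: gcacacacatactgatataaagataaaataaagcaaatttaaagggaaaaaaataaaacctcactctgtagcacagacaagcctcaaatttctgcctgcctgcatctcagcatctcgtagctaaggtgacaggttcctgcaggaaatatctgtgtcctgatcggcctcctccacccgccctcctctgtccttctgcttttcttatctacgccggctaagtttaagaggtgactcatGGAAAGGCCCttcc
C3: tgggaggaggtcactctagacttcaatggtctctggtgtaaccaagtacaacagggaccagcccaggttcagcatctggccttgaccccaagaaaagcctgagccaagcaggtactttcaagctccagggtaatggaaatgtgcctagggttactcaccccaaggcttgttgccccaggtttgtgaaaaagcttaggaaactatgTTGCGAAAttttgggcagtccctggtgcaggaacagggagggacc

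In the windows of C1qb and C1qc the GAGGAA pattern begins at positions -30 and -193 (-1 being the last base before the start), in C1qc as its reverse complement. The NF-kB form in C3ar1, also reversed, begins at -14, and TTGCNNAA in C3 at -45.

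The 3 C1q chain genes all fell. They lie side by side on chromosome 4, with C1qb (ENSMUSG00000036905) at 136607440 to 136613498, C1qc (ENSMUSG00000036896) at 136617115 to 136620376 and C1qa (ENSMUSG00000036887) at 136623228 to 136626114, positions as the deposited table lists them, and no other gene of the table overlaps any of them. C1qb, the B chain, was measured at 179, 170.1, 185, 172 and 186 CPM in WT 1 to WT 5 and at 110.4, 112, 106, 102 and 98.8 CPM in KO 1 to KO 5. Every KO library was below every WT library, and the mean went from 179 ± 7.495 to 106 ± 5.44 CPM, 1.69-fold lower (log2 fold change -0.76 ± 0.05 SE, edgeR adjusted p = 4.09e-07).

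C1qc, the C chain, stood at 109, 110.4, 119, 109 and 108 CPM in WT and at 72.0, 80.7, 71.7, 67.6 and 71.6 CPM in KO. The groups did not overlap, although KO 2 lay above the other 4 KO libraries. Its mean was 1.53-fold lower in KO (log2 fold change -0.61 ± 0.05 SE, edgeR adjusted p = 3.5e-06). C1qa, the A chain, had 66.6, 59.7, 67.6, 64.4 and 67.4 CPM in WT and 50.4, 51.6, 47.6, 49.97 and 45.6 CPM in KO. Here too all KO libraries were below all WT libraries, by the smallest margin of the 3 chains: 1.33-fold (log2 fold change -0.41 ± 0.05 SE, edgeR adjusted p = 6.41e-05). Groups that do not overlap, with KO lower, were found for 12.4% of all genes tested.

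The 3 chains did not fall by the same amount. The ratio of 2 genes' counts within a library does not depend on how libraries are scaled to each other, and 6 such ratios were tested. There were 2.69, 2.85, 2.74, 2.67 and 2.76 C1qb counts per C1qa count in WT 1 to WT 5, and 2.19, 2.16, 2.23, 2.04 and 2.17 in KO 1 to KO 5. No KO value reached the lowest WT value, and the difference in the mean log2 ratio was -0.35 (exact permutation test, two-sided, p = 0.00794, Benjamini-Hochberg adjusted 0.0119 over the 6 ratios, n = 5 each). C1qc per C1qa went from between 1.61 and 1.85 in WT to between 1.35 and 1.57 in KO, a log2 difference of -0.20. C1qc per C1qb went the other way, from between 0.583 and 0.649 to between 0.652 and 0.724, a log2 difference of 0.14. Both C1qc ratios had the same exact p of 0.00794, the smallest the design allows before adjustment, adjusted 0.0119. On the log2 scale C1qc per C1qb is the difference of the other 2 ratios, so it is not a separate piece of evidence. In relative terms C1qb was therefore reduced most, C1qc less and C1qa least.

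**Figure D2:**
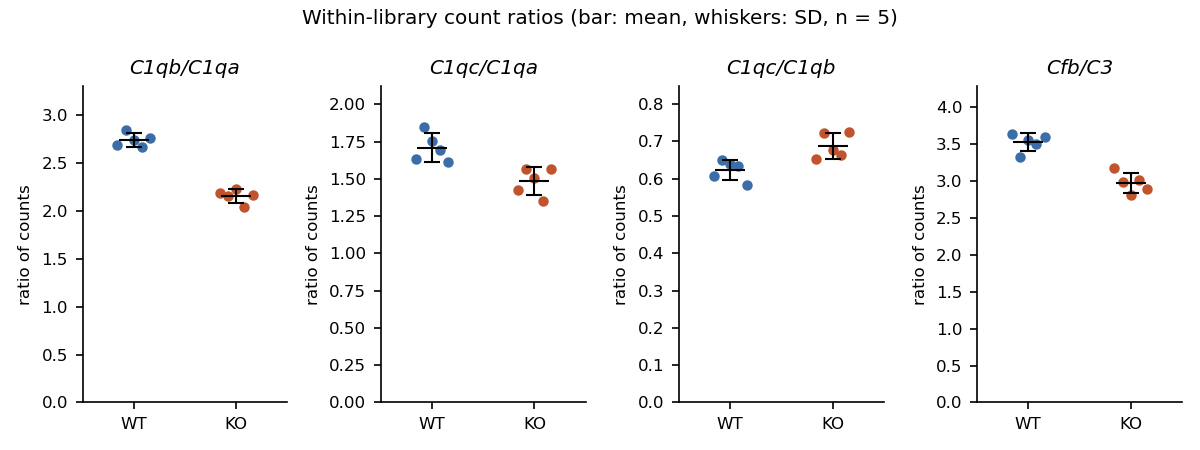
Counts of one gene divided by counts of another within each library (y axis, starting at 0) for C1qb/C1qa, C1qc/C1qa, C1qc/C1qb and Cfb/C3, by group; points are libraries, the bar is the mean and the whiskers the SD of 5. In each panel all KO values lie on one side of all WT values; C1qb/C1qa goes from 2.67 to 2.85 in WT to 2.04 to 2.23 in KO.

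By profile over the 10 libraries the chains were not each other's closest genes. Likeness was measured as the root mean square difference of log2 CPM centred on each gene's mean, among 8602 genes averaging 3 or more in log2 CPM that have a full name. C1qc was the 51st closest gene to C1qb, at 0.09, and C1qb the 43rd closest to C1qc. C1qa was further off, the 315th closest to C1qb and the 201st closest to C1qc, and from C1qa they ranked 1878th and 736th. C1qa was nearest to Tesk1, a protein kinase gene, at 0.03, and to Tbc1d13, at 0.04. C1qb was nearest to Csrp1 and to the kinase gene Pim1, both at 0.05, and C1qc to Myd88, the adaptor of Toll-like receptors, and to Xylt2, both at 0.05.

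C3, the central component (ENSMUSG00000024164, chromosome 17, 57510970 to 57535136), was the single member that rose. It was measured at 1298, 1359, 1479, 1451 and 1475 CPM in WT and at 1513, 1761, 1668, 1725 and 1737 CPM in KO. KO 1 was the lowest KO library and still lay above the highest WT library. Mean C3 went from 1412 ± 80.4 to 1681 ± 100.0 CPM, 1.19-fold higher (log2 fold change 0.25 ± 0.05 SE, edgeR adjusted p = 0.00294). Of all genes tested, 10.9% were higher in KO without overlap. The summed fibroblast and mesothelial markers, cells that also make C3, averaged 603 ± 29.7 CPM in WT and 693 ± 66.6 CPM in KO, with 3 of the list higher and 2 lower; their part in the C3 difference was not tested. When KO 1 and KO 2, the libraries with hepatocyte transcripts, were left out, an alternative added once their values were known, C3 was called higher (log2 fold change 0.28 ± 0.05 SE, edgeR adjusted p = 0.00283). Its closest genes by profile were Ypel2 at 0.03 and Nup107, a nuclear pore gene, at 0.05.

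Factor B RNA was as high in both groups. Cfb (ENSMUSG00000090231, chromosome 17, 35075350 to 35081494) gave 4725, 4528, 5267, 5081 and 5319 CPM in WT and 4805, 5262, 4686, 5195 and 5034 CPM in KO. The 2 ranges overlapped almost wholly, and the log2 fold change was 0.0036 with a 95% interval of -0.11 to 0.12 (edgeR adjusted p = 0.971). When libraries were scaled by their total counts alone, the median over all genes shifted by scaling alone, from 0.01 to 0.12 on the log2 scale. Cfb was then also at 0.12 and was called (adjusted p = 0.0432). Relative to C3 it was lower in KO: there were 3.64, 3.33, 3.56, 3.50 and 3.61 Cfb counts per C3 count in WT and 3.18, 2.99, 2.81, 3.01 and 2.90 in KO. All 5 KO ratios were below all WT ratios (log2 difference -0.25, exact permutation p = 0.00794, adjusted 0.0119). With Cfb itself nearly level, this ratio mostly restates the rise of C3, so it is not a separate piece of evidence. Mea1 and Fam32a, both at 0.04, had the profiles closest to Cfb.

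The Cfb locus carries other annotated transcripts. A gene called Gm20547 (35075388 to 35101018) spans Cfb and reaches into C2, the neighbouring gene of the classical pathway convertase at 35081580 to 35117241, so reads there may be shared between the 3. Gm20547 held at most 0.76% as many counts as Cfb and outnumbered C2 in 7 of the 10 libraries. Its counts were 104, 435, 669, 551 and 90 in WT and 223, 927, 393, 210 and 137 in KO. C2 had 174, 127, 148, 109 and 190 counts in WT, highest in WT 1 and WT 5, the libraries where Gm20547 was lowest. C2 was called lower in KO (7.58 ± 1.51 to 5.46 ± 0.997 CPM, edgeR adjusted p = 0.041), but lost the call with library totals (adjusted p = 0.092), without a low-count filter (0.0964), and without WT 1, WT 2, WT 3, WT 5, KO 1, KO 2, KO 3 or KO 4 (0.0509 to 0.113).

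Properdin did not pass either. Cfp (ENSMUSG00000001128, chromosome X, 20791693 to 20797794) was at 105, 93.0, 105, 101 and 103 CPM in WT and 99.0, 96.8, 96.9, 98.0 and 94.9 CPM in KO. The KO values all fell inside the WT range. Its log2 fold change was -0.06 with a 95% interval of -0.15 to 0.03 (edgeR adjusted p = 0.283), and turned to 0.05 with library totals (adjusted p = 0.322). Eif3f, a translation initiation factor gene, and Wdr3 were its closest genes, both at 0.03.

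The receptor for C3a changed most among the members. C3ar1 (ENSMUSG00000040552, chromosome 6, 122824097 to 122833120) was measured at 549, 564, 517, 545 and 561 CPM in WT and at 196, 228, 215, 227 and 202 CPM in KO. The highest KO library was far below the lowest WT library, and spread within each group was small. Mean C3ar1 went from 547 ± 18.7 to 214 ± 14.5 CPM, 2.56-fold lower (log2 fold change -1.36 ± 0.05 SE, edgeR adjusted p = 2.88e-08). It fell while C3, the source of its ligand, rose in the same libraries. Its closest profiles were those of Slc28a2, a nucleoside transporter gene, at 0.08, and Itpr1, an intracellular calcium channel gene, at 0.09.

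C5ar1, the receptor for C5a (ENSMUSG00000049130, chromosome 7, 15980668 to 15993465), had 1 library far below the other 4 in each group. By the rule that asks for at least 2 libraries at each level no member took 2 levels, and C5ar1 was the 1 member to do so when a single library was allowed. It was at 137, 128, 19.4, 138 and 135 CPM in WT 1 to WT 5 and at 88.9, 89.2, 11.1, 76.9 and 88.6 CPM in KO 1 to KO 5. WT 3 and KO 3 stood apart, with 384 and 247 counts where the other libraries of their groups had at least 2385 and 1567. In WT the mean of the other 4 libraries was 6.93 times the value in WT 3, and in KO it was 7.77 times the value in KO 3. The other libraries did not overlap between groups, at 128 to 138 CPM in WT and 76.9 to 89.2 CPM in KO.

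With all libraries C5ar1 did not pass (log2 fold change -0.65, 95% interval -1.85 to 0.54, edgeR adjusted p = 0.422). Without WT 3 and KO 3, libraries chosen after their values were seen, it was 134 ± 4.74 against 85.9 ± 6.004 CPM (n = 4 each). It was then called lower, with a nearly equal log2 fold change of -0.64 ± 0.06 SE (adjusted p = 6.03e-05). Leaving out KO 3 alone gave -0.37 and leaving out WT 3 alone -0.91, neither of them called. As lone low libraries the pair did not stand apart. By a rule that a gap of at least 2-fold sets 1 library below the other 4, WT 3 and KO 3 were each the lone low library for 27 genes, within the 20 to 45 found for the 10 libraries. C5ar1 was the 1 gene for which both were. Other pairings of a WT with a KO library shared 0 to 4 such genes. As the lone high library KO 3 had 22 genes, against 4 to 11 in the other KO libraries. WT 3 had 11, against 5 to 23 in the other WT libraries.

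**Figure D3:**
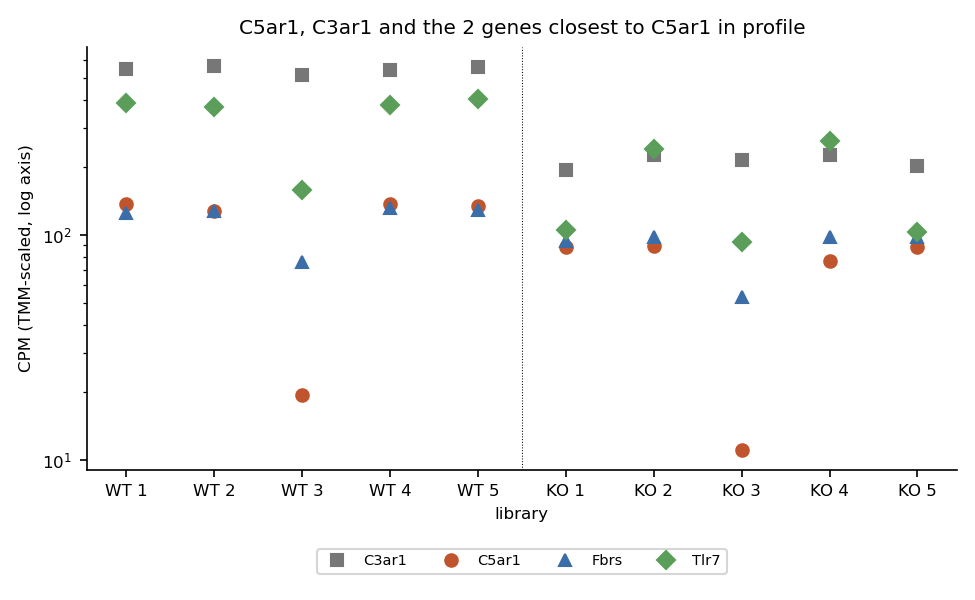
CPM after TMM scaling (y axis, log scale) of C5ar1, C3ar1, Fbrs and Tlr7 in each of the 10 libraries (x axis; the dotted line divides WT from KO). C5ar1 drops to 19.4 CPM in WT 3 and 11.1 CPM in KO 3, while C3ar1 stays at 517 and 215 CPM in those libraries.

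No gene followed C5ar1 closely. The nearest profiles were Fbrs at 0.83 and Tlr7, a receptor for single-stranded RNA, at 0.89. The nearest genes of the other 7 members tested were at 0.09 or less. This measure is not scaled to a gene's own variation, so the distances are not directly comparable. The root mean square of the centred values was 1.20 for C5ar1 and between 0.06 (Cfp) and 0.68 (C3ar1) for the others. Fbrs was at 75.8 CPM in WT 3 and 125.5 to 132 CPM in the other WT libraries, and in KO at 52.9 CPM in KO 3 with the others at 94.5 to 98.5 CPM. It was thus lowest in the same 2 libraries, by a smaller factor. Tlr7 was also lowest there, at 158 CPM in WT 3 against 370 to 404 CPM in the other WT libraries. In KO 3 it was at 92.8 CPM, close to KO 5 at 103 CPM and KO 1 at 106 CPM. C5ar2, the second C5a receptor, lies next to C5ar1 at 15968510 to 15978079 and was rare: 0, 20, 23, 14 and 1 counts in WT and 1, 1, 1, 1 and 0 in KO. WT 2, WT 3 and WT 4 stood above the floor of 3 counts per library (0.132 to 0.155 CPM, covering counting error only), and WT 1, WT 5 and all KO libraries were below it. With those counts C5ar2 was not tested across genes. The C5ar1 to C3ar1 count ratio differed between groups by 0.68 on the log2 scale (exact permutation p = 0.437, adjusted 0.437). Without WT 3 and KO 3 the difference was 0.73 (exact p = 0.0286, adjusted 0.0343). Those libraries were chosen because C5ar1 itself was low there, which removes most of the spread within groups. No conclusion is drawn from that p.

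Vsig4 was close to absent. This receptor gene (ENSMUSG00000044206, chromosome X, 95290809 to 95337044) had 5, 4, 9, 9 and 12 counts in WT and 6, 3, 4, 2 and 2 in KO. The 2 groups overlapped, and 3 KO libraries were at or below the floor of 3 counts. Without a low-count filter its log2 fold change was -1.27 ± 0.40 SE (edgeR adjusted p = 0.0612), which did not pass.

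**Figure D4:**
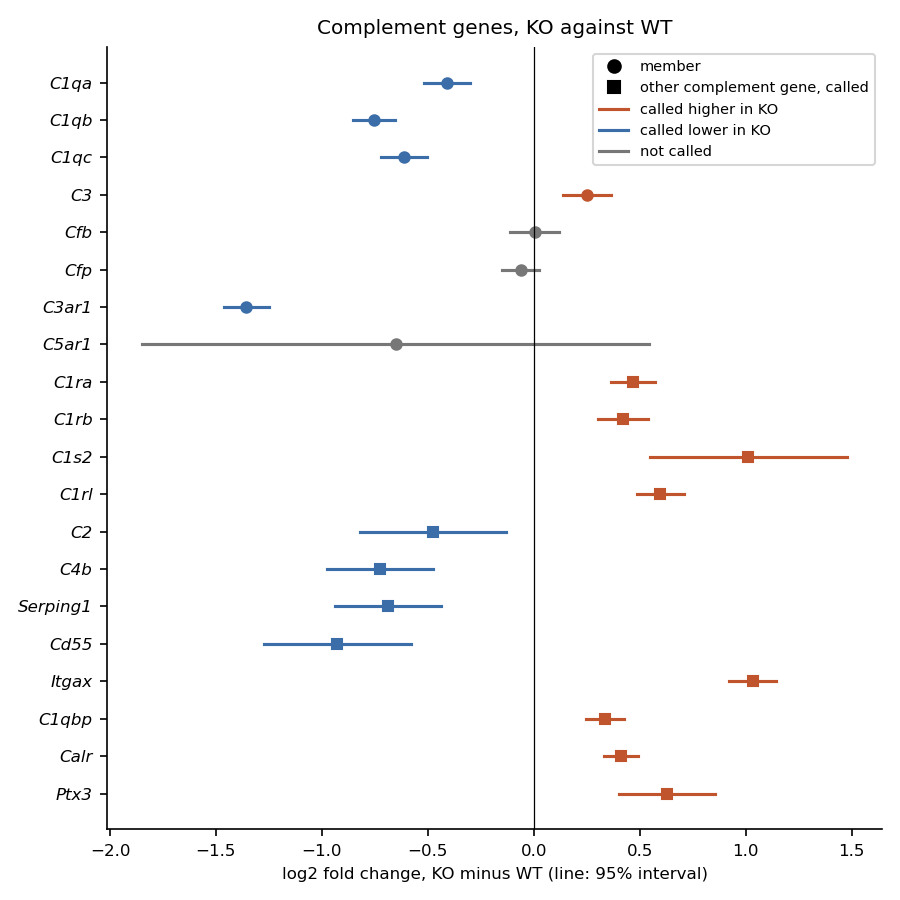
Log2 fold change, KO minus WT, with its 95% interval (x axis) for the 8 members tested (circles) and 12 of the 13 other complement genes called (squares). C1q chains and C3ar1 lie below 0, C1r and C1s paralogs above 0, and the interval of C5ar1 runs from -1.85 to 0.54.

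Beyond the members, 25 of the 51 other complement genes had enough counts to be tested, and 8 were higher and 5 lower in KO (29.1% of all genes were called in either direction). Their median log2 fold change was -0.0023, against 0.01 over all genes. Genes of the C1r and C1s family that passed the test were higher in KO, where the C1q chains were lower. C1ra, one of 2 mouse C1r genes, went from 72.4 ± 1.30 to 100.4 ± 6.61 CPM, 1.39-fold higher (edgeR adjusted p = 1.72e-05). C1rb rose by 0.42 ± 0.05 (SE) on the log2 scale, the related gene C1rl by 0.60 ± 0.05 and C1s2 by 1.01 ± 0.21, the last from a mean of 1.75 CPM. C1s1, the other C1s gene, had a log2 fold change of 0.57 ± 0.31 SE and did not pass. By the rule that no member met, C1s1 took 2 levels in KO. Its gap of 1.0003 on the log2 scale barely reached the 1 required. KO 4 was at 16.9 and KO 1 at 18.2 CPM while the other 3 ranged from 36.4 to 47.0 CPM. WT 5 was at 9.95 CPM against 22.6 to 24.8 CPM in the other WT libraries. Reads of these near copies could have been divided between paralogs in the authors' counting, so single values for C1ra, C1rb, C1s1 and C1s2 are uncertain. The fibroblast and mesothelial markers, of which 3 rose and 2 fell, were not tested for a part in these values.

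C4b, the component cleaved by C1s, fell from 23.7 ± 2.57 to 14.3 ± 2.47 CPM, 1.66-fold (edgeR adjusted p = 0.000499), with the caveat that C4a is a near copy. In the lectin pathway Fcna, the gene of ficolin A, was at 106 ± 5.33 CPM in WT and 100.0 ± 5.09 CPM in KO (adjusted p = 0.203). Masp1 was at 5.07, 1.68, 7.92, 0.393 and 0.554 CPM in KO 1 to KO 5. It was highest in KO 1 and KO 3, as were the mesothelial markers Msln and Krt19, whose part in its values was not tested. In all, 10 of 16 classical and lectin pathway genes were tested, 4 rose and 2 fell, beside 14.1% and 15.0% over all genes.

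Among regulators that restrain complement, 3 of 7 tested fell and none rose, out of 18 listed, beside 15.0% lower and 14.1% higher over all genes. Serping1, the C1 inhibitor that blocks C1r and C1s, fell from 16.2 ± 1.20 to 10.1 ± 1.78 CPM, 1.61-fold (edgeR adjusted p = 0.000749). Cd55, a membrane protein that speeds the decay of convertases, fell by 0.93 ± 0.16 (SE) on the log2 scale from a level of 1.62 CPM. Cr1l, a membrane regulator also called Crry, was at 57.4 ± 4.94 and 56.1 ± 8.13 CPM, Clu at 12.6 ± 1.72 and 12.0 ± 2.68 CPM, and neither passed.

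Of 9 listed receptors and binding partners, 7 were tested, 4 were higher in KO and none lower, beside 14.1% higher and 15.0% lower over all genes. Itgax, the alpha chain of complement receptor 4, went from 129 ± 7.53 to 265 ± 13.5 CPM, 2.05-fold higher (edgeR adjusted p = 1.33e-07). Calr and C1qbp, genes of proteins that can bind C1q, rose by 0.41 ± 0.04 and 0.34 ± 0.04 (SE) on the log2 scale, and Ptx3, a pentraxin that can also bind it, by 0.63 ± 0.10. Itgam, the alpha chain of complement receptor 3, had 376 ± 111 CPM in WT and 363 ± 37.9 CPM in KO. Their shared beta chain gene Itgb2 had a log2 fold change of 0.05 ± 0.04 SE and did not pass, but was called with library totals (0.17, adjusted p = 0.00103). Over all the other complement genes tested, not only these receptors and partners, calls were 8 higher and 4 lower without KO 1 and KO 2. They were the same without WT 3 and KO 3.

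Genes of the lytic end of the cascade were near the floor except in 2 libraries. Over the 7 genes Hc (the mouse C5 gene), C6, C7, C8a, C8b, C8g and C9, the summed count was 12 to 25 in WT and 14 to 17 in KO 3, KO 4 and KO 5, but 126 in KO 1 and 117 in KO 2. Hc itself had 35 and 38 counts in KO 1 and KO 2 and at most 7 in any other library. Summed over the 11 regulators too rare to be tested, there were 188 and 197 counts in KO 1 and KO 2 and 7 to 27 elsewhere, Vtn alone giving 91 and 93. Not all followed the sum: Cd59b had 4 and 7 counts in KO 1 and KO 2 and 8 to 12 in the other KO libraries, and Csmd1 had none in any library. KO 1 and KO 2 are the libraries with hepatocyte transcripts, at 136 and 158 CPM over 8 markers. Many of the complement genes high there, such as Hc and Vtn, are made mainly in liver. The part of such RNA in their counts was not tested. C8g was the 1 gene of this group to be tested and did not pass. The calls of the 5 members that changed held without KO 1 and KO 2.

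**Figure D5:**
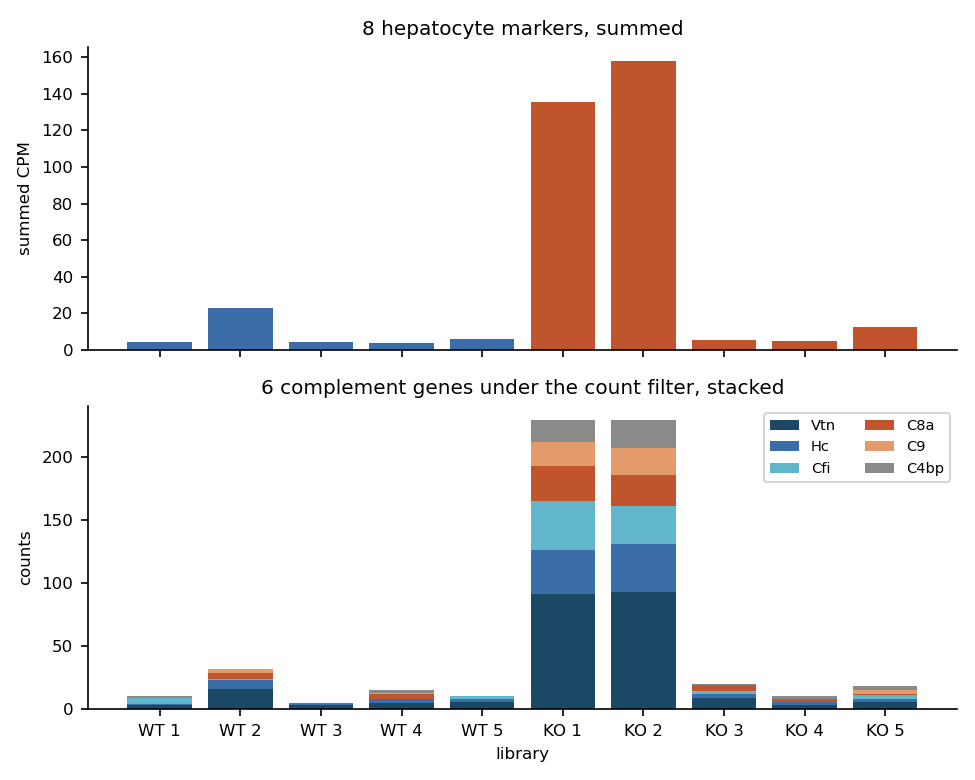
Summed CPM of 8 hepatocyte markers (upper panel) and stacked counts of Vtn, Hc, Cfi, C8a, C9 and C4bp, complement genes under the count filter chosen after their values were seen (lower panel), in each of the 10 libraries. Both are highest in KO 1 and KO 2, and WT 2 comes next in both.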

How the data were processed

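RNA-seq counts of 10 macrophage libraries (5 WT, 5 KO) were analysed. Per the file headers, the deposited table gives whole-number counts and FPKM per gene. FPKM in the authors' WT columns equalled counts divided by gene length and library total, and was used to derive gene length; 5 further FPKM columns were not used. TopHat2 2.0.6 and CASAVA 1.8 are the tools named per the submitters' processing notes, beside the builds mm10 and GRCm39 without a role. With counter, annotation and strand setting not given in the sources used here, overlapping genes cannot be separated. Only 1482 of 52125 shared identifiers sit at their GRCm38 position, so gene positions are as listed in the table.

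WT columns were joined to samples by title and SI columns to KO by elimination. Where a symbol had several rows, the one with most counts was taken.

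Counts were tested with edgeR 4.0.16 in R 4.3.3 (quasi-likelihood F test, TMM, filterByExpr with minimum count 10, Benjamini-Hochberg over 14436 genes holding 99.87% of counts; called at adjusted p under 0.05). CPM uses TMM-scaled totals of the tested genes; log2 CPM has a prior count of 2. SE is the log2 fold change divided by the square root of F. Ratios used counts plus 0.5 and exact permutation tests. A gene at 2 levels had a gap of at least 1 on the log2 scale, larger than the range on either side, with at least 2 libraries on each side. The procedure was tested on simulated data. Alternatives were other scalings, filters, DESeq2 1.42.0, limma-voom (limma 3.58.1), robust edgeR, a replicate block and leaving out libraries.

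Named were all members, other complement genes called and averaging 0 or more in log2 CPM, and the 2 closest profiles per member. Genes overlapping a member and the 2 most abundant markers of each list were also named. Others, called or not, were chosen after their values were seen. Among markers these included Cd163, Dcn, Pdgfra, Upk3b, Msln, Krt19, Wt1, Lum, Ly6g, Cxcr2, Retnlg, Elane, Ngp and Camp. Among complement genes they included Cd59b, Csmd1, C1s1, Fcna, Masp1, Cr1l, Clu, Itgam, Itgb2, C5ar2, Hc and Vtn. Some called genes of the lists are not reported here by name. Members and lists were chosen with earlier results of these data known.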

Additional observations from a re-analysis of the deposited data

Results flagged for a closer look

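In groups of 5 libraries, a value was set aside for a closer look when its gap to the nearest other value was more than 0.71 of the group's range. Chance does this in about 1 of 20 groups, and 74 groups were examined, with 10 such values.

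C5ar1 was at 19.4 CPM in WT 3 and at 11.1 CPM in KO 3, far below the other 4 libraries of each group. The ratios that use it stood apart in the same libraries: C5ar1 per C3ar1 count was 0.0376 in WT 3 and 0.0515 in KO 3, and C5ar2 per C5ar1 count was 0.0611 in WT 3 and 0.00606 in KO 3. C1qc was at 119 CPM in WT 3, against 108 to 110.4 CPM in the other WT libraries, and Itgax at 242 CPM in KO 1, against 266 to 275 CPM in the other KO libraries; both genes keep groups that do not overlap. Summed hepatocyte markers were 22.96 CPM in WT 2, above 3.89 to 6.12 CPM in the other WT libraries, and summed lymphocyte markers were 0.582 CPM in KO 3, against 0.733 to 0.785 CPM, a few counts per gene.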

How the results depend on the processing

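C1qa, C1qb, C1qc, C3 and C3ar1 kept direction and call under all 20 alternatives, with log2 fold changes of -0.45 to -0.29, -0.80 to -0.64, -0.66 to -0.50, 0.23 to 0.37 and -1.38 to -1.24. Library totals gave 2 members higher in place of 1, and 4231 higher and 1361 lower over all genes in place of 2036 and 2164; Cfp turned to 0.054. Cfb, at 0.0036, rose to 0.12 and was called with library totals. It changed sign under 5 of 20 alternatives, none of them called, ranging from -0.018 to 0.040 when single libraries were left out and standing at -0.0032 without KO 1 and KO 2. The 6 count ratios kept their direction in every fit run, and a pseudocount of 0 could not be used for C5ar2/C5ar1. Leaving out single libraries, C5ar1/C3ar1 ranged from 0.14 to 1.27, passing without KO 3. Without WT 3 and KO 3 it was 0.73 and passed, but these libraries were chosen for their low C5ar1, so the pass decides nothing. Without KO 1 and KO 2, differences were -0.36 for C1qb/C1qa, -0.21 for C1qc/C1qa, 0.14 for C1qc/C1qb and -0.28 for Cfb/C3, each at an adjusted p of 0.0536, where the smallest raw p is 0.0357.

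In a fit with replicate block, taking column numbers for KO, the same ratio differences were -0.35, -0.20, 0.14 and -0.25, at an adjusted p of 0.075; the sign-flip test cannot go below 0.0625. C5ar1 was called under the block (-0.67, adjusted p = 0.000252), since WT 3 and KO 3 share a number. Same-numbered libraries did not deviate together, with correlations of -0.11 to 0.18 across genes, and only 1 of 5 KO libraries and 2 of 5 WT libraries correlated best with their own number, so they were not treated as pairs. By the rule for 2 levels, 345 of all genes tested, 0 members and 1 other complement gene qualified. The counts were 816 genes with a 1.5-fold gap, and 647 genes, 1 member and 3 other complement genes with 1 library allowed on a side. Depth limits Vsig4, C5ar2 and the terminal components.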
